A study of Rattus norvegicus with 20 samples.

Results

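The testes sample was 1 of the 20 samples of the series and was chosen by its tissue label alone. It was a single small RNA sequencing library made from the pooled miRNA of 3 rats, and it was set against 13 other tissue pools and brain, so that testes was 1 of 15 tissues. All animals were untreated, non-drinking male Long Evans Hooded rats at postnatal day 35, an age at which the first wave of spermatogenesis is under way. The other pools, each also from 3 rats, were subcutaneous fat, heart, kidney, large intestine, liver, lung, hindlimb muscle, pancreas, skin, small intestine, spleen, stomach and thymus, while brain was the mean of 3 hemispheres sequenced singly, and the 3 serum libraries were kept apart. Per the methods of the study, the tissues and serum came from the same 3 rats, so the libraries do not stand for separate sets of animals. No treatment was compared, and the question was which miRNAs set the testes of a young rat apart from its other tissues.

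The testes library held 162080 reads on the 444 miRBase precursors (hairpins), the smallest total of the 17 tissue libraries, which otherwise held 201726 to 3685761. Levels are given as RPM, the reads of a precursor scaled to the precursor total of its own library. A count of 3 reads, the limit that a count of 0 allows, corresponded to 18.5 RPM in testes and to 0.814 to 14.9 RPM in the other tissue libraries. In testes 272 precursors had a read and 159 had at least 10. Since testes was 1 pool with no replicate, its values carry no replicate check and no p-value. The exact permutation test of 1 tissue against the other 14 could not go below 0.0667. The 95% Wilson intervals given here cover counting error only, as reads without molecular identifiers are not independent molecules. In a whole tissue, fewer cells of a type and less RNA per cell cannot be told apart.

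A miRNA is cut from a hairpin precursor as a 5p or a 3p arm and recognises its target mRNAs mainly by its seed, bases 2 to 8 counted from the 5′ end. The mir-34b/c and mir-449 hairpins are known from male germ cells at and after meiosis and from multiciliated epithelia such as that of the airway, and mir-34a, which shares their seed, is a target of p53. A rapidly evolving group of X-linked hairpins between the genes Slitrk2 and Fmr1 is known for its testis expression, and mir-202 is known from gonads.

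The mature sequences below belong to hairpins that the results turn on. They are the rat RefSeq entries (GRCr8), written 5′ to 3′ with the seed in capitals. The mir-34 and mir-449 arms are shown because all 5 share 1 seed, and they are the only 5 of the 693 mature names in the RefSeq table that hold it.
miR-34a-5p: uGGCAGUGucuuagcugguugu
miR-34b-5p: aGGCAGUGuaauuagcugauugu
miR-34c-5p: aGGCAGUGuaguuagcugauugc
miR-449a-5p: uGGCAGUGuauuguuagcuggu
miR-449c-5p: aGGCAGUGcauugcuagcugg
The X-linked arms are shown because their seeds, unlike those of the mir-34 and mir-449 family, nearly all differ. Of the 9 shown, miR-743a-5p and miR-871-5p share a seed, and miR-743a-3p and miR-743b-3p differ in theirs by G8A, counted from the 5′ end.
miR-743a-3p: gAAAGACGccaaacuggguaga
miR-743b-3p: gAAAGACAccauacugaauaga
miR-741-3p: aAAGAUGCcacgcuauguagau
miR-881-3p: uAACUGUGgcauuucugaauag
miR-743a-5p: uAUUCAGAuuggugccugucau
miR-871-5p: uAUUCAGAuuggugccggucacau
miR-463-3p: uGAUAGACgccaauuuggguag
miR-3585-5p: uUCACAAGaaggugucuuucau
miR-201-5p: cACUCAGUaaggcauuguuc
The arm of the gonadal mir-202 that the mature rows list is shown for its testes-only reads.
miR-202-3p: aGAGGUAUagcgcaugggaaa
The mir-10 arms are shown because the 2 hairpins went different ways in testes, and those of the related mir-99b and mir-100 because both were higher. The annotated miR-10b-5p starts 2 bases later than miR-10a-5p relative to the sequence they share, so that their listed seeds differ, while miR-99b-5p and miR-100-5p share a seed.
miR-10a-5p: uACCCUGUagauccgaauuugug
miR-10b-5p: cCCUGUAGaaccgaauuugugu
miR-99b-5p: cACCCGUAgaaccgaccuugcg
miR-100-5p: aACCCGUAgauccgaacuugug

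A precursor was called higher in testes where log2(RPM + 1) was at least 2 above the median of the other 14 tissues, a 4-fold difference on that scale, and testes held at least 10 reads. By this rule 45 of the 444 precursors were higher, or 10.1%. Of these, 29 had their highest level of the 15 tissues in testes, and 12 had 10 reads in no other tissue library, so that they met the read minimum through testes alone. A precursor was called lower where it was at least 4-fold under the median of the others and that median was at least 100 RPM, and 9 of 111 such precursors were lower, or 8.11%. For 30 of the 444, or 6.76%, the testes interval lay wholly above the interval of every other tissue library, brain libraries singly included. The germ cell markers mir-34c, mir-34b and mir-449a and the gonadal mir-202 were each highest in the pool labelled testes. The 20 largest differences among the higher precursors fell on the X-linked hairpins, mir-34b, mir-34c, mir-449a, mir-449c and mir-202, with no other precursor between them. The median difference was 0.00 over all 444 precursors and 0.51 over the 111 abundant ones. With TMM scaling of the libraries 34 were higher and 17 lower, and with DESeq2 size factors 34 and 19, so that the higher share of the calls was 83.3% as reported, 66.7% with TMM and 64.2% with DESeq2. The 34 higher calls of each scaling were among the 45, and both scalings kept the 9 lower calls. The 21 called members of the mir-34 and mir-449 family, the X-linked group and mir-202 had intervals apart with either.

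**Figure D1:**
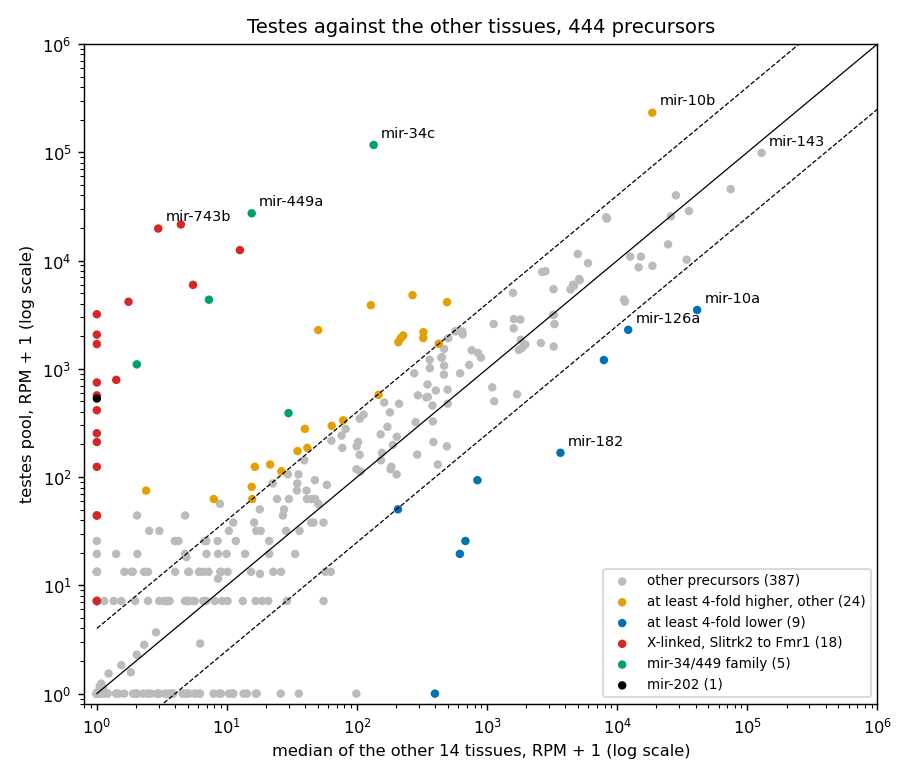
Level of each of 444 precursors in the testes pool (vertical axis, RPM + 1, log scale) against its median over the other 14 tissues (horizontal axis, RPM + 1, log scale), with lines of equality and of 4-fold difference. The mir-34 and mir-449 family, the 18 X-linked precursors and mir-202 lie above the upper line, with mir-34c at 116708 RPM in testes against a median of 133.2 RPM, and mir-10a at 3492 RPM lies below the lower line.

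The mir-34 and mir-449 family held 24285 of the testes precursor reads, or 15% (14.8 to 15.2%), against a median of 0.0192% in the other tissues and 0.318% in lung, the next highest. All 5 of its listed members were higher and had intervals apart, and their median difference was 9.22. mir-34c, the hairpin named as the marker of this tissue, was at 116708 RPM in testes (115154 to 118280). In the other tissues it ranged from 54.2 RPM in stomach through a median of 133 RPM to 1976 RPM in lung. The testes value was thus 59.1 times that of lung (57.2 to 61.0 by an exact interval on the counts), and the groups did not overlap. Brain came close behind lung, with 1903, 1674 and 1813 RPM in its 3 hemispheres (1796 ± 115.5, SD, n = 3). The difference of testes over the median was 9.76 on the log2(RPM + 1) scale.

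mir-34b, encoded beside mir-34c next to Btg4, followed it at a lower level. It was at 4344 RPM in testes (4035 to 4676) and at 1.90 to 70.7 RPM elsewhere, with a median of 6.27 RPM and the maximum in lung. The ratio of mir-34c to mir-34b reads was 26.9 in testes (24.9 to 29.0) and 28.0 in lung (24.0 to 32.8), and these intervals overlapped. In brain, where ratios and shares here use the summed reads of the 3 hemispheres, the ratio was 37.3 (30.7 to 45.6).

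The mir-449 hairpins lie between Mcidas, a regulator of multiciliated cells, and Gpx8. mir-449a was at 27295 RPM in testes (26513 to 28100) against 3.05 to 800 RPM in the others, with a median of 14.5 RPM, and exceeded lung 34.1-fold (32.3 to 36.0). mir-449c was at 1098 RPM (948 to 1272) against 0 to 233 RPM, again with lung next, and exceeded lung 4.72-fold (3.96 to 5.59). The 2 hairpins were therefore in unlike proportion in the 2 tissues where they were most abundant: mir-449a had 24.9 times the reads of mir-449c in testes (21.4 to 29.0) and 3.44 times in lung (3.13 to 3.78), a ratio within a library that scaling does not touch. mir-449c made up 0.733% of the family's reads in testes (0.633 to 0.848%) and 7.33% in lung (6.77 to 7.94%).

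mir-34a was the least testes-centred member of the family. It was at 389 RPM in testes (304 to 497), from 63 reads, against 4.91 RPM in kidney to 130 RPM in brain, where the hemispheres were at 144, 142 and 103 RPM. By the summed reads of the 3 hemispheres, testes exceeded brain 2.86-fold (2.14 to 3.77). Testes held 42.6% of the summed level of mir-34a over the 15 tissues, but 95.6% for mir-34b, 95.6% for mir-34c, 95.9% for mir-449a and 79.0% for mir-449c. Within the family mir-34c gave 77.9% of the testes reads, mir-449a 18.2%, mir-34b 2.90% and mir-34a 0.259%, whereas in brain mir-34a gave 6.55% and mir-449a 2.81%.

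**Figure D2:**
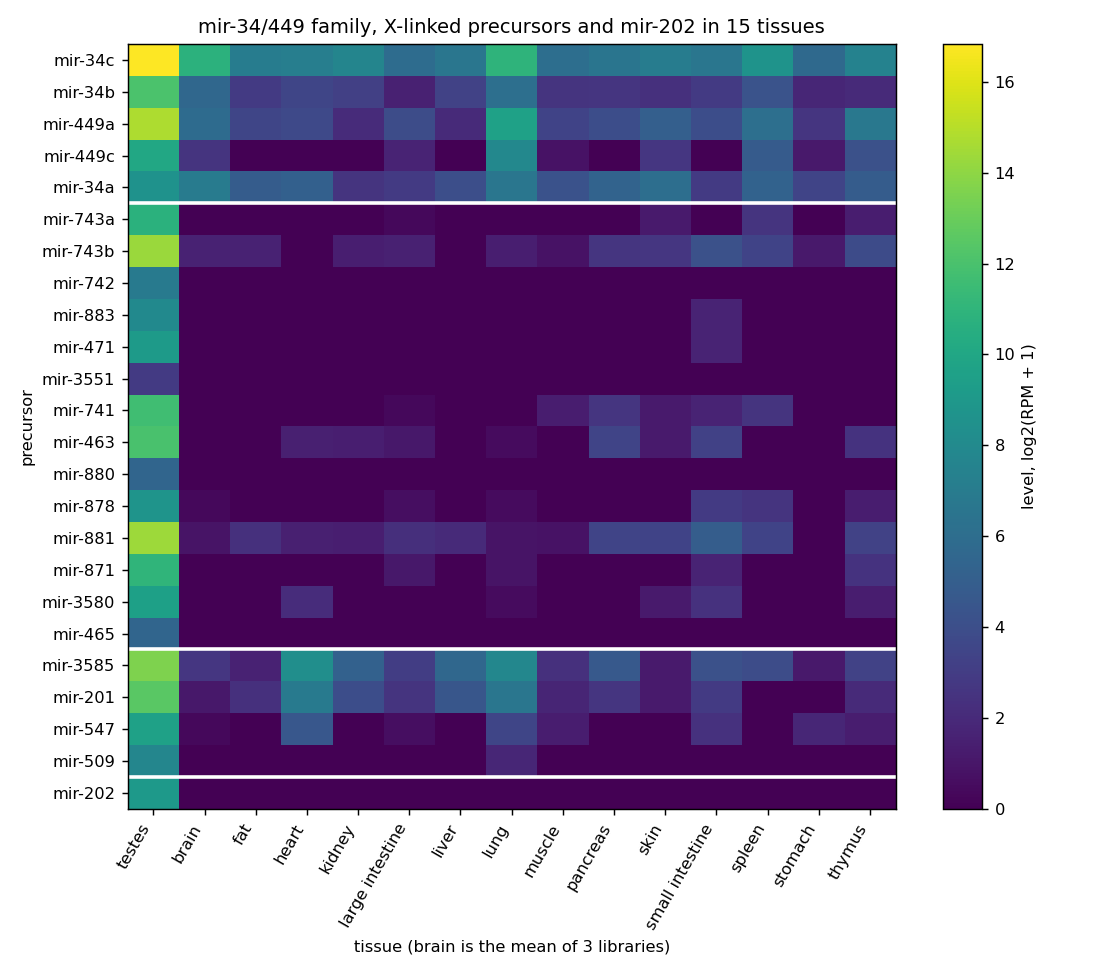
Level, as log2(RPM + 1), of the mir-34 and mir-449 family, the 18 X-linked precursors in their order from Slitrk2 to Fmr1, and mir-202 (rows) in the testes pool and the other 14 tissues (columns); white lines part the family, the X-linked precursors nearer Slitrk2, those nearer Fmr1, and mir-202. The testes column is the highest in all 24 rows, mir-34c and mir-449a also show in lung, and the mir-3585 and mir-201 rows also show in heart and lung.

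The RefSeq gene table (GRCr8, used for gene order only) places 18 miRNA genes between Slitrk2 and Fmr1 on the X chromosome, and all 18 are listed as precursors. All 18 had a read in testes. Of these, 15 were higher and had intervals apart, at 123 to 21533 RPM in testes, and no other tissue exceeded 318 RPM for any of them. Of the other 3, mir-465 and mir-880 had 7 reads each and mir-3551 had 1 read, under the minimum of 10, and all 3 had no read in the other tissue libraries. Together the 18 held 11996 testes reads, or 7.40% of the total (7.27 to 7.53%), against a median of 0.00485% and 0.0465% in heart, the next highest. Of the 16 names in the list of the X-linked cluster, 15 were listed and 13 of those were higher. mir-3580, mir-3585 and mir-3551 were not in that list and were added for their position.

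The most abundant were mir-881 and mir-743b. mir-881 was at 21533 RPM (20837 to 22251) in testes and at 0 to 29.9 RPM elsewhere, with a median of 3.42 RPM and the maximum in small intestine, which testes exceeded 721-fold (429 to 1319). mir-743b was at 19737 RPM (19071 to 20426) against 0 to 17.1 RPM, with a median of 1.96 RPM, and had the largest difference of all precursors, 12.70. Its neighbour mir-743a was at 1691 RPM, with 4 reads in all the other tissue libraries together.

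Next came mir-3585 at 12482 RPM, mir-201 at 5960 RPM, mir-463 at 4158 RPM, mir-741 at 3190 RPM and mir-871 at 2067 RPM. mir-547, mir-3580, mir-471 and mir-878 were at 790, 747, 568 and 413 RPM. mir-883, mir-509 and mir-742 were the lowest of the called members, at 253, 210 and 123 RPM. mir-742 had 20 reads in testes and none in the other tissue libraries. By its point value, its testes level was 600 times that of 3 reads in their 14594970 reads together. This limit holds for the pooled libraries and not for a single tissue.

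The X-linked hairpins formed 2 blocks in the gene order, 14 beside Slitrk2 and 4 (mir-3585, mir-201, mir-547 and mir-509) beside Fmr1, with protein-coding genes between them. In testes the Fmr1 block gave 26.3% of the reads of both (25.5 to 27.1%). In heart it gave 264 of 268 reads, or 98.5% (96.2 to 99.4%), and in lung 796 of 807, or 98.6% (97.6 to 99.2%). mir-3585 was at 318 RPM in heart and 223 RPM in lung, and mir-201 at 118 and 96.6 RPM, so that testes exceeded heart 39.3-fold for mir-3585 (33.8 to 46.0) and 50.5-fold for mir-201 (39.5 to 65.6). The Slitrk2 block reached at most 74.7 RPM outside testes, in small intestine, where it gave 35 reads to 13 of the Fmr1 block. Whether the few reads outside testes came from those tissues was not tested.

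mir-202, the gonadal hairpin, had 86 reads in testes, or 531 RPM (430 to 655), and no read in any of the other 16 tissue libraries. By its point value, its testes level was 2581 times that of 3 reads in their 14594970 reads together. That limit holds for the pooled libraries, and in single libraries it was 0.814 to 14.9 RPM. The 6 listed hairpins of the mir-290 cluster, a mark of early embryonic and primordial germ cells, had 3 testes reads among them, which is the limit that a count of 0 allows, and none was called.

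mir-10b and mir-10a, 2 sister hairpins of the Hox clusters, lay at opposite ends in testes. mir-10b, within the span of Hoxd4, was the most abundant testes precursor at 232046 RPM (229997 to 234107), or 23.2% of the reads. In the other tissues it ranged from 1110 RPM in pancreas through a median of 18586 RPM to 198457 RPM in kidney and 193172 RPM in fat. Testes exceeded kidney by 1.17-fold (1.16 to 1.18) only, and with TMM or DESeq2 scaling testes ranked 3 and 4 of 15 instead. The difference from the median was 3.66, and 2.62 and 2.53 with those scalings. mir-10a, between Hoxb4 and Hoxb5, was at 3492 RPM in testes (3216 to 3791), against a median of 41110 RPM and a maximum of 159309 RPM in kidney. It had the lowest level of the 15 tissues in testes, but brain hemispheres 1 and 2 were at 3373 and 3422 RPM, inside the testes interval, and testes ranked 14 of 15 with either scaling.

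The ratio of the 2 hairpins within a library does not depend on scaling. Testes had 66.4 reads of mir-10b for each read of mir-10a (61.2 to 72.3). Skin followed with 9.37 (9.19 to 9.56), muscle with 4.42, thymus with 3.12 and fat with 2.78, and lung had the lowest ratio, 0.0148. The testes ratio was thus apart from the other 14. The mature rows gave another proportion, since 721 reads stood on miR-10b-5p and 479 on miR-10a-5p in testes, as set out with the arms.

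**Figure D3:**
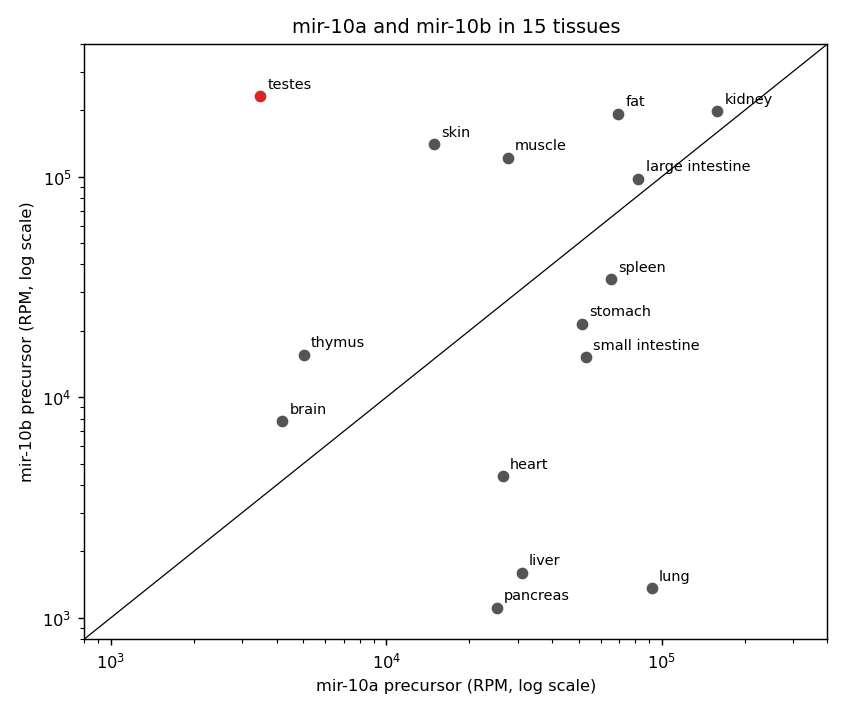
mir-10b level (vertical axis, RPM, log scale) against mir-10a level (horizontal axis, RPM, log scale) in 15 tissues, 1 point per tissue, with the line of equality. Testes, in red, lies at the upper left, with 232046 RPM of mir-10b and 3492 RPM of mir-10a.

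Of the 45 higher precursors, 24 lay outside the mir-34 and mir-449 family, the X-linked group and mir-202. The largest of these differences was that of mir-298, near the imprinted Gnas locus, at 2277 RPM in testes (2056 to 2521) against 0 to 1010 RPM, with a median of 49.3 RPM. Brain was next, at 1024, 862 and 1144 RPM, and by its summed reads testes exceeded it 2.27-fold (2.03 to 2.54). Its neighbour mir-296 was at 74.0 RPM from 12 reads. mir-204, within Trpm3, was at 3868 RPM (3578 to 4183) against a median of 127 RPM, below the 6535, 4858 and 5998 RPM of the brain hemispheres, but ranked 1 of 15 with either scaling. mir-100 was at 4788 RPM (4463 to 5136) against 97.2 to 1266 RPM, 3.78 times brain by its summed reads (3.49 to 4.10). Its relative mir-99b, with the same seed, was at 1703 RPM, a difference of 2.01 that fell to 1.14 with TMM. mir-1839 was at 2030 RPM, 3.00 times brain by its summed reads (2.66 to 3.39).

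The remainder were shared with other tissues. mir-340-1 and mir-340-2 were at 1758 and 1925 RPM with thymus next at 1090 and 1225 RPM; the 2 copies have a common mature product and their split is uncertain. Their intervals were apart as reported but with neither scaling, and with DESeq2 size factors thymus was above testes, at 1595 against 1194 RPM for mir-340-1 and 1793 against 1307 RPM for mir-340-2. mir-375, an endocrine and gut hairpin, was at 4128 RPM, rank 5 of the 15 tissues, under the 18328 RPM of large intestine. In the mir-17~92 and mir-106b~25 list, tied to proliferation, 4 of 12 hairpins were higher (mir-17-1, mir-18a, mir-20a and mir-92a-2), against 10.1% of all precursors, with a median difference of 1.92. The sum of that list was 18244 RPM in testes against a median of 7652 RPM and 32025 RPM in thymus. Of the 33 other X-linked hairpins, 6 were higher (mir-351-1, mir-351-2, mir-363, mir-542-1, mir-542-3 and mir-672), against 10.1% of all precursors, none with intervals apart, and their median difference was 0.95. The copies of mir-103 had intervals apart without reaching 4-fold, at 2079 and 2215 RPM. With both scalings 11 of the 24 were no longer called, and mir-17-1, mir-20a, mir-92a-2, mir-363 and both mir-542 copies were among them.

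**Figure D4:**
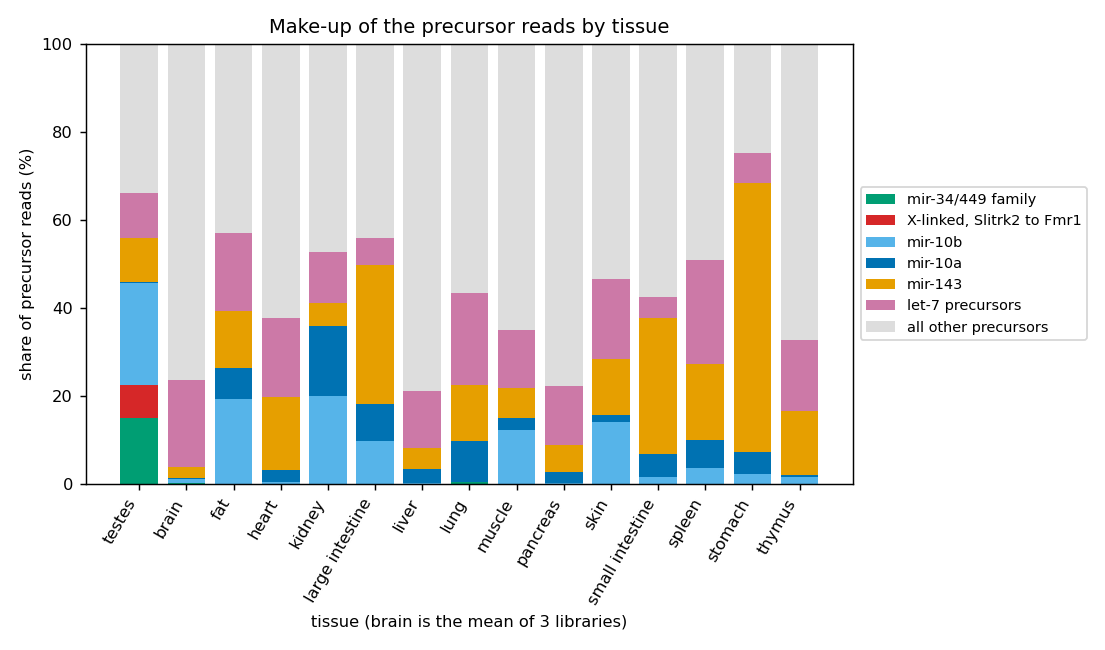
Share of precursor reads (vertical axis, percent) taken by 6 groups of precursors in the testes pool and each of the other 14 tissues (horizontal axis), stacked to 100%. The mir-34 and mir-449 family (15%) and the X-linked precursors (7.40%) take 22.4% of the testes reads together with mir-202 and are barely visible in the other bars, and mir-10b takes 23.2% of testes.

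The mir-34 and mir-449 family, the X-linked precursors and mir-202 together took 22.4% of the testes reads (22.2 to 22.6%), against at most 0.351% elsewhere, in lung. RPM sums to a fixed total, so a share of this size leaves less for the other testes precursors. Other tissues had larger shares of their own, such as 61.2% for mir-143 in stomach. The median difference of the 111 abundant precursors was 0.51, and the effect of these shares on it was not tested. The 10 most abundant testes precursors held 66.4% of the reads. After mir-10b and mir-34c these were mir-143, a smooth muscle hairpin, at 98674 RPM, let-7f-1 at 45698, mir-30a at 39993, mir-22 at 28653, mir-449a, mir-26a at 25599, mir-16 at 25123 and mir-191a at 24395 RPM. Of these 10 only mir-10b, mir-34c and mir-449a were called. mir-143 differed from the median by -0.38 and mir-26a by -0.01. As a list, let-7 had no call among 12 hairpins and a median difference of 0.32, mir-30 none among 5 with 0.67, mir-181 none among 6 with -0.10 and mir-29 none among 6 with 0.39. The let-7 sum was under the median of the other tissues, at 105221 against 149117 RPM, rank 12 of 15. The mir-181 sum was also under it, at 20439 against 33069 RPM. The sums of mir-30 (63419 against 55771 RPM) and mir-29 (586 against 577 RPM) were above it.

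The 9 lower precursors were led by epithelial hairpins. Of the 5 members of the mir-200 family, which keep epithelial identity, 4 were lower, against 8.11% of the 111 precursors with a median of at least 100 RPM. mir-200a had no read in testes, which allows up to 18.5 RPM, against a median of 396 RPM. mir-200b had 3 reads, mir-429 had 4 and mir-141 had 15, against medians of 616, 679 and 841 RPM. The family sum was 136 RPM in testes, rank 13 of the 15 tissues, against a median of 3956 RPM and 15432 RPM in large intestine. Of the 4, only mir-200a ranked last in testes, and low levels were not particular to testes. The last rank of mir-200a is not settled, since heart, muscle and spleen were at 1.74, 3.18 and 9.37 RPM, under that 18.5 RPM limit. mir-200b was at 18.5 RPM in testes and at 5.21, 3.18 and 4.69 RPM in heart, muscle and spleen. mir-429 was at 24.7 RPM in testes and at 10.4, 5.56 and 14.1 RPM in those tissues. mir-182, of the sensory mir-183 cluster, was at 167 RPM from 27 reads against a median of 3656 RPM. Heart and muscle also had little mir-182, at 99.0 and 156 RPM. The cluster mates mir-183 and mir-96 had no testes read, which again allows up to 18.5 RPM. Heart, muscle and spleen were also under that limit for both.

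The vascular mir-126a was at 2289 RPM in testes (2068 to 2534), below every other tissue, which ranged from 2888 RPM through a median of 12132 RPM to 42495 RPM in heart. mir-378a, hosted in other mammals by a gene of oxidative metabolism, was at 1203 RPM (1046 to 1384), also below every other tissue, from 2249 RPM to 72069 RPM in muscle. Both ranked last of the 15 with either scaling too. The lymphocyte hairpin mir-150 had 8 reads against a median of 205 RPM, a difference of -2.03 at the edge of the rule. Just outside it stood mir-27b at -1.75, and just under the upper limit stood mir-127 at 1.98 and mir-19a at 1.96.

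Several defining markers of other tissues had few or no testes reads. mir-122 of liver and the 3 mir-124 hairpins of neurons had no read, mir-1 of muscle had none and mir-133a 2, the red cell hairpin mir-451 had 2 and the epidermal mir-205 had 1. Not all members of these lists were as low. mir-208b of the muscle list was at 30.9 RPM in testes, above the 15.9 RPM of the muscle pool and far under 2899 RPM in heart. mir-128-1 of the neuronal list was at 376 RPM, against 12452 RPM in brain. By list, the 8 muscle hairpins summed to 55.5 RPM in testes, under the median of 121 RPM over the other tissues and 70671 RPM in muscle. The 14 neuronal hairpins summed to 549 RPM, rank 5 of the 15 tissues and above the median of 266 RPM, with 61871 RPM in brain. The 2 erythroid hairpins summed to 18.5 RPM against a median of 34.1 RPM and 12816 RPM in spleen. The 6 leukocyte hairpins summed to 7305 RPM, near the median of 7433 RPM over the other tissues and far under 75178 RPM in spleen, with mir-142 at 500 RPM. The gut and kidney list was at 3233 RPM against a median of 3303 RPM, and mir-203 and mir-205 at 481 RPM against 500 RPM. The mesenchymal list, mostly mir-143, was at 100684 RPM against 135430 RPM. Of the 45 hairpins of the imprinted Dlk1-Dio3 cluster 2 were higher, mir-410 and mir-409a, against 10.1% of all precursors, and neither was called with TMM or DESeq2 scaling. The sum of the cluster was 5344 RPM against 1442 RPM, and 89735 RPM in brain. mir-132 and mir-212 had 5 reads. The pancreas pool held mir-122, a liver hairpin, at 14862 RPM, near the 14726 RPM of liver. It was also near liver for mir-192 (232017 and 228719 RPM) and mir-802 (1021 and 1018 RPM), and its mir-217 was at 0 RPM. Not all hairpins were as near, with mir-92a-1 at 5626 RPM in pancreas and 13162 RPM in liver. The source of this likeness was not tested, and the median counts both pools. Without the pancreas pool 41 precursors were higher and 10 lower.

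The arm reads of mir-34c and mir-449a came almost wholly from the 5p side that holds the common seed. In testes miR-34c-5p had 18339 reads and miR-34c-3p had 26, a 5p share of 99.9%, inside the range of 97.5 to 100% over 13 other tissues. miR-449a-5p had 4149 reads and miR-449a-3p none. miR-34b was less one-sided, with 492 reads on 5p and 134 on 3p, a 5p share of 78.6% (75.2 to 81.6%). This lay between the 71.7 and 82.4% of the 2 other tissues with enough reads. For mir-34a and mir-449c only the 5p arm had a mature row, with 41 reads and 0 reads in testes, so their arm use could not be assessed. On the mature rows miR-34c-5p was at 187550 RPM in testes and 2251 RPM in lung, and miR-449a-5p at 42431 and 799 RPM.

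X-linked hairpins used either side. miR-743b-3p had 2572 reads to 271 on 5p, miR-743a-3p had 204 to 33 and miR-3580-3p had 83 to 2. miR-871-5p led its 3p arm by 276 to 13 and miR-201-5p by 98 to 10, while miR-547-5p and miR-547-3p were near parity at 56 and 64 reads. Of these 6 hairpins only mir-547 had 20 arm reads in another tissue, where its 5p share was 63.6% against 46.7% in testes (38.0 to 55.6%). The share in that tissue rested on few reads and was given no interval, so a difference in arm use cannot be read from it. The arm use of the other 5 could not be compared.

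**Figure D5:**
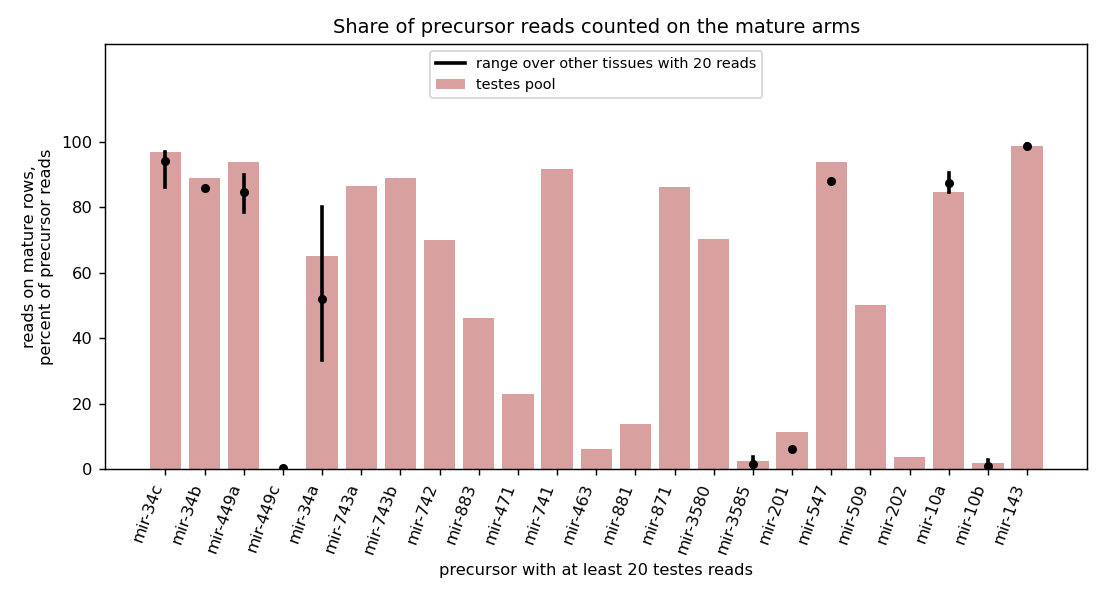
Reads on the mature arms as a percent of the reads on the precursor (vertical axis), for precursors with at least 20 testes reads (horizontal axis). Bars are the testes pool, points the median and lines the range over other tissues with at least 20 precursor reads. The share is 97.1% for mir-34c but 2.32% for mir-3585 and 1.93% for mir-10b, which is low in the other tissues too.

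The mature rows did not hold all precursor reads. In testes their total was 60.3% of the precursor total, below the 61.9 to 87.8% of the other tissue libraries. For mir-34c 97.1% of the precursor reads stood on its arms, for mir-449a 93.8%, for mir-741 91.7% and for mir-743b 88.9%. For mir-881 it was 13.6%, for mir-201 11.2%, for mir-463 6.23%, for mir-202 3.49% and for mir-3585 2.32%, and mir-449c had 178 precursor reads and none on miR-449c-5p. mir-10b had 37610 precursor reads and 724 on its arms, or 1.93%, and its share was 0.409 to 2.68% in the other tissues, against 84.8% for mir-10a. The cause of these gaps was not tested. The low shares of mir-3585 and mir-10b were thus not particular to testes. Without scaling, miR-10b-5p had its highest level in testes, 7374 RPM against 5260 RPM in fat. Levels are divided by the scaling factors of the mature rows. With DESeq2 these were 1.93 in testes and 1.24 in fat, which puts fat above testes. With TMM they were 1.44 and 1.30, and testes stays above fat.

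Over the 15 tissues the precursors whose log2 levels followed mir-34c most closely were mir-34b (Pearson r = 0.979), mir-449a (0.916), mir-509 (0.894), mir-760 (0.866) and mir-449c (0.847). These are descriptions over 15 points of which testes is far apart. Over the 14 tissues without testes r was 0.928 for mir-34b, 0.752 for mir-449a, 0.745 for mir-760, 0.692 for mir-449c and 0.617 for mir-509. Over these 14 tissues mir-1298 (0.891), mir-3075 (0.884), mir-92b (0.817), mir-218b (0.785) and mir-6318 (0.776) were also above mir-449a. mir-760 had 4 testes reads. Across the 149 precursors with at least 100 RPM in testes or as the median of the others, the testes profile was nearest to heart (r = 0.514) and spleen (0.508). Without the mir-34 and mir-449 family, the X-linked group and mir-202, r over 128 precursors rose to 0.822 for spleen, 0.810 for fat and 0.796 for heart, and was lowest for brain at 0.608. Precursors are not independent replicates, and these values describe single libraries.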

How the data were processed

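Small RNA of 20 libraries was sequenced on a MiSeq after TruSeq Small RNA preparation. Per the methods of the study, base calls under a phred score of 20 were trimmed and reads were aligned with Bowtie to Rn5 and quantified against miRBase (release 21 in the files) and RefSeq; the submitters' notes also name Partek. The values the authors deposited are estimated counts (expected counts, not normalized) per feature, stacked as 3 annotations, and the precursor rows were used, with the mature rows for arms. RPM was computed within an annotation, 1 RPM was added before log2, and brain was averaged over 3 libraries, except in ratios of counts and shares of a family, which use their summed reads. Calls required 10 testes reads (higher) or a median of 100 RPM (lower). No test was run, as 1 pool has no replicate. Wilson 95% intervals and exact intervals of count ratios were computed from rounded counts. Ranges beside a value are these intervals.

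The members and lists were chosen with earlier results of these data known. The genes named are the 20 largest higher and up to 10 lower differences, the 10 most abundant, up to 4 leading members of each list, all members of the mir-34 and mir-449 family, the X-linked cluster and mir-202, and the 5 profiles most like mir-34c. Others (the precursors nearest the limits, those called within a list, the mir-103 copies, mir-3551 and those above mir-449a in likeness to mir-34c without testes) were named after their values were seen. Alternatives covered pseudocount, reference, scaling with edgeR (4.0.16, TMM) and DESeq2 (1.42.0, positive counts) under R 4.3.3 on counts rounded to whole numbers, annotation, thresholds, and each pool or brain library left out. The call procedure was tested on simulated data, in which all libraries had the same precursor proportions apart from changes set in testes. That setting cannot show how often ordinary differences between tissues meet the rule. Sequences and gene order are from RefSeq (GRCr8); all 32 precursors looked up had a mature sequence. Their coordinates are left out, since the reads were placed on another build. Python 3.11.15, pandas 2.3.3, SciPy 1.17.1 and Matplotlib 3.10.9 were used.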

Additional observations from a re-analysis of the deposited data

Results flagged for a closer look

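Of the 24 precursors of the mir-34 and mir-449 family, the X-linked group and mir-202, 1 had a read in the serum libraries, which entered no comparison with testes. mir-34c had 4 reads in blood serum replicate 3, or 504 RPM (95% Wilson interval 196 to 1296), above the 378 RPM that a count of 0 allows in that library, and none in replicates 1 and 2, where 0 reads allow up to 397 and 276 RPM. The other 23 had no read in serum. No testes signal was thus detectable in serum beyond these 4 reads at this depth, and their source was not tested.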

How the results depend on the processing

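The difference of mir-34c was 9.76 as reported and kept its direction in all settings: 9.67 with a pseudocount of 10 RPM, 9.37 against the mean log2 level, 9.10 with TMM, 8.95 with DESeq2 size factors, 9.72 on RefSeq rows and 10.02 on mature rows, and 9.75 to 9.78 when single pools or brain libraries were left out. The count of lower precursors, 9 as reported, was 17 with TMM, 19 with DESeq2 size factors and 14 with a median of at least 30 RPM; these calls included the 9. TMM moved the median difference of the 111 abundant precursors by -0.72, to -0.21, and DESeq2 by -0.86, to -0.35. The counts of higher precursors (45, from 30 with an 8-fold threshold to 59 with 3 testes reads) and of precursors with intervals apart (30, from 25 to 35) stayed within 1.5 times of the reported counts, and leaving out single libraries gave 41 to 47 higher, 8 to 10 lower and 30 to 31 apart. None of the 54 called precursors changed sign under the pseudocounts, the reference, the scalings or, for the 20 largest and the 9 lower, the libraries left out, and 12 fell under the 4-fold limit in at least 1 setting. Depth limits testes to levels over 18.5 RPM. The tissues came from the same rats, but no paired analysis was possible because testes is 1 pool and no test was run.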
